A study of Homo sapiens with 8 samples.

Results

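The E2F family comprises the transcription factors E2F1 to E2F8 and their dimerization partners DP1 and DP2, which are encoded by TFDP1 and TFDP2. These 10 genes were taken by name as members of the family, and 9 of them carried values in the table used here. E2F4 was not analysed here, because its label lies beyond the rows for which labels and values could be matched. The RNA came from Raji, a rituximab-sensitive Burkitt's lymphoma cell line, and from Raji-4RH, a resistant line derived from Raji by repeated rituximab exposure. Both were grown in RPMI medium with serum and exposed for 24 h either to the vehicle DMSO or to 3 µM chidamide, a benzamide inhibitor of histone deacetylases. The 8 libraries formed 4 groups with 2 libraries per group (Raji DMSO, Raji chidamide, Raji-4RH DMSO and Raji-4RH chidamide). Each resistant or sensitive state was therefore represented by 1 line, and the harvest passed through flow sorting. The comparisons ask how chidamide changed the family in each line, whether the lines differed in that response, and how the lines differed under each treatment.

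E2F factors control the genes of S phase entry. In resting or early G1 cells the retinoblastoma protein and its relatives p107 and p130 bind E2F-DP dimers and keep their target genes silent, and phosphorylation of these pocket proteins by cyclin D and cyclin E kinases frees the activator E2Fs. E2F1, E2F2 and E2F3 are the activators, E2F4, E2F5 and E2F6 act mainly in repression, and the atypical members E2F7 and E2F8 bind DNA without a DP partner and lower E2F target expression late in S phase. Burkitt's lymphoma is a rapidly dividing B cell tumour driven by MYC, and activator E2F genes are themselves E2F and MYC targets.

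RefSeq promoter windows (GRCh38.p14, from 250 bases before to 50 bases after the start) were matched for 8 of the 10 genes. The exact E2F site was searched on both strands as TTTGGCGC, TTTCCCGC, TTTCGCGC or TTTGCCGC. It was present in the windows of E2F1, E2F2, E2F3 and TFDP1 and not in those of E2F4, E2F6, E2F7 and TFDP2, against 3.33% of 27305 promoters. A shorter core lacking the first T of each word, which every E2F site contains, was in 13.1% of promoters and also lay in the windows of E2F6 and E2F7. E2F1 carried a pair of E2F sites, with first bases at -33 and -20 from the start, and the second lies past the stretch printed here. Sites began at -42 in E2F2, at -53 in E2F3 and at -120 in TFDP1. The stretches before the first exon of these 4 genes are shown with that of E2F6, which had no E2F site and whose level moved least among the members with values. They cover chr20:33686405-33686635 (minus strand), chr1:23531234-23531483 (minus), chr6:20401629-20401878 (plus), chr13:113584503-113584720 (plus) and chr2:11466178-11466411 (minus), each is written 5′ to 3′ along the gene, and capitals mark the E2F site:
E2F1: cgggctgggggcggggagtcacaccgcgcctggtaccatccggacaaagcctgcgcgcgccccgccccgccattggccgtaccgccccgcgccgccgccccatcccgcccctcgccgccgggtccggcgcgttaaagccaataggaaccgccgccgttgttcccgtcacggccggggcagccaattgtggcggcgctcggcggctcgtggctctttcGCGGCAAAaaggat
E2F2: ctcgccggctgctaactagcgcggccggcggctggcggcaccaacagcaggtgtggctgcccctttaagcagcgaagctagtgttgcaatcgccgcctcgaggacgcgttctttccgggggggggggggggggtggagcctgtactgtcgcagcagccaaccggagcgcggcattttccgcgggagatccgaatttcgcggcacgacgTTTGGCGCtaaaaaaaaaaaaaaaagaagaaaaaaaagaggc
E2F3: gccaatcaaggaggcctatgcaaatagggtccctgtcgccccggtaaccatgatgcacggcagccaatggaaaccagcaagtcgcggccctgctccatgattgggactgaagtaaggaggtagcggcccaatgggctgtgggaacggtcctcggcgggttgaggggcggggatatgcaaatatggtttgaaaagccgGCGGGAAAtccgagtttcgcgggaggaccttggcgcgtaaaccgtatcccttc
TFDP1: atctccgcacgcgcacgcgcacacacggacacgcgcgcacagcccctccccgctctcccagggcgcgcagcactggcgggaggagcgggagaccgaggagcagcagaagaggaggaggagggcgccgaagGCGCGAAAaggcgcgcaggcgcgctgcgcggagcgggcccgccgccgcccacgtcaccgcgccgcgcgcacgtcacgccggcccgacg
E2F6: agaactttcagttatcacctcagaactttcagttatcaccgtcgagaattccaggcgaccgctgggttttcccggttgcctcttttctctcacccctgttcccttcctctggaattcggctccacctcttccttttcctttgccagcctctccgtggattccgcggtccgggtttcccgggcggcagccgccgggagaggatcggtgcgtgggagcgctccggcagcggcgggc
A match of letters describes these windows only, and no binding was measured. E2F7 and TFDP2 also had no E2F site, and E2F7 was 2.42-fold lower under chidamide in Raji-4RH and TFDP2 1.49-fold lower in Raji. No window was matched for E2F5 and E2F8, which fell in both lines. The core in E2F6 begins at 14, past the stretch printed here. Whether a site goes with the response was not tested.

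Expression was given as FPKM, the reads of a gene scaled to its length in kilobases and to the total reads of the library. For the members this length joins all annotated exons (2503 bases for E2F1 with 1 transcript, 11897 for TFDP2 with 24). Levels can thus be compared between genes only approximately, since the transcripts in use may be shorter. The libraries held 13991697 to 21193441 reads, the shallowest being Raji-4RH chidamide replicate 1, and each library lay nearest to its own replicate (r from 0.992 to 0.998 over 10710 genes). Differences are those of log2(FPKM + 1), tested by limma with Benjamini-Hochberg adjustment over the 10710 genes that reached 1 FPKM in 2 or more libraries, and a gene is said to rise or fall where its adjusted p was under 0.05. Because 1 is added, the scale understates changes of low genes. All 9 members passed this filter. All 7 B cell markers examined were at or above 1 FPKM in every library (summed level 610 to 1149 FPKM, highest in Raji DMSO and lowest in Raji-4RH chidamide). Of the T cell markers 4 of 5, of the myeloid markers 2 of 4 and of the fibroblast and epithelial markers 3 of 4 were under 1 FPKM in every library. Summed T cell markers stood at 0.0712 to 0.943 FPKM in the DMSO libraries and at 0.815 to 4.95 FPKM under chidamide, and summed myeloid markers at 0.826 to 0.981 FPKM and 5.75 to 8.10 FPKM. The summed fibroblast and epithelial markers stood at 0.0409 to 0.354 FPKM under DMSO and at 0.783 to 2.32 FPKM under chidamide. The part of these cells or transcripts in the results below was not tested. In bulk RNA, fewer cycling cells and less E2F RNA per cell cannot be told apart. The labels do not say whether libraries came from separate cultures, so p-values measure only the spread between these libraries, which may be technical.

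Among the 9 members with values, TFDP1 had the highest mean FPKM, E2F1 the second and E2F7 the lowest in all 4 groups. E2F4 had no values, so ranks within the whole family are not known. E2F2 had rank 3 in both DMSO groups and in Raji chidamide but rank 7 under chidamide in Raji-4RH. When the 4 groups were ordered by level for each member, the libraries of neighbouring groups did not overlap, except for TFDP2 in Raji chidamide and Raji-4RH chidamide. The gap was small for E2F7 (2.43 FPKM in a Raji chidamide library against 2.44 in a Raji-4RH DMSO library). How many of all genes separate in this way was not counted, so the separation is not a trait shown for the family. The ratio of the highest to the lowest group mean ran from 1.19 for E2F6 to 9.57 for E2F2. Raji-4RH chidamide was the lowest group for E2F1, E2F2, E2F3, E2F5, E2F7 and E2F8.

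**Figure D1:**
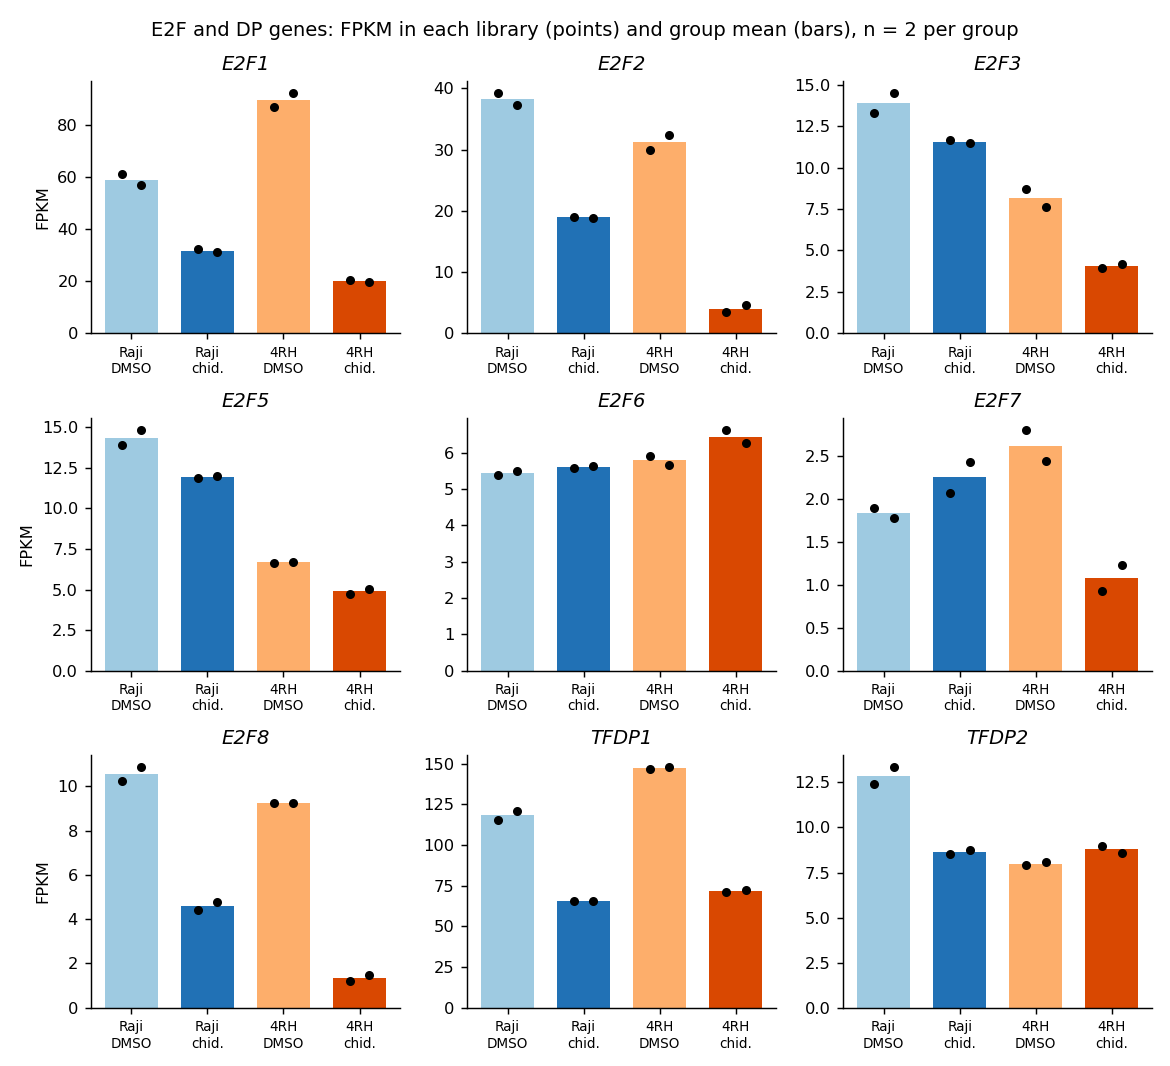
FPKM (vertical axis, from 0) of the 9 E2F and DP genes in Raji and Raji-4RH (4RH) under DMSO or chidamide (chid.); points are the 2 libraries of a group and bars their mean. E2F1, E2F2, E2F8 and TFDP1 were lower under chidamide in both lines, whereas E2F6 stayed between 5.39 and 6.63 FPKM in all 8 libraries.

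Chidamide lowered most of the family in both lines, and no member rose. In Raji-4RH, 7 of the 9 members fell and none rose, where 74.9% of all tested genes passed (43.3% higher and 31.6% lower). In Raji, 7 of the 9 fell and none rose, where 60.0% of all genes passed (31.5% higher and 28.5% lower). The median difference of the members was -0.86 in Raji-4RH and -0.52 in Raji, against 0.09 and 0.02 over all genes tested. The response differed between the lines for 6 of the 9 members, 5 of them with a more negative and 1 with a more positive difference in Raji-4RH, where 48.8% of all genes differed (27.2% more positive and 21.7% more negative). The counts of members that fell were 7 in each line under each other scaling of the libraries. Quantile normalization moved the median of all genes in Raji-4RH by more than 0.1, from 0.093 to -0.022, and the split of genes higher and lower from 4642 and 3380 to 3718 and 4057. In Raji the split moved from 3370 and 3051 to 2642 and 3432.

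The activators E2F1 and E2F2, which drive transcription of replication genes, fell in both lines and fell further in Raji-4RH. E2F1 (ENSG00000101412, chr20:33675683-33686404) measured 61.1 and 57.1 FPKM in Raji DMSO, 32.4 and 31.3 in Raji chidamide, 87.0 and 92.3 in Raji-4RH DMSO and 20.4 and 19.8 in Raji-4RH chidamide. The groups did not overlap, and the line with more E2F1 under DMSO had less of it under chidamide. E2F1 was 4.45-fold lower in mean FPKM in Raji-4RH (difference -2.10, SE 0.057, adjusted p = 4.02e-08) and 1.86-fold lower in Raji (difference -0.87, SE 0.057, adjusted p = 6.23e-06). The difference of these differences was -1.23 (SE 0.081, adjusted p = 1.79e-05).

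E2F2 (ENSG00000007968, chr1:23506430-23531220), a close relative of E2F1 that is prominent in lymphoid cells, had the largest change of the 9 members in Raji-4RH. Its level was 39.2 and 37.3 FPKM in Raji DMSO, 19.0 and 18.8 in Raji chidamide, 29.9 and 32.5 in Raji-4RH DMSO and 3.43 and 4.57 in Raji-4RH chidamide. The last pair lay well below all other libraries. E2F2 was 7.80-fold lower in Raji-4RH (difference -2.70, SE 0.099, adjusted p = 1.28e-07) and 2.02-fold lower in Raji (difference -0.98, SE 0.099, adjusted p = 6.66e-05), and the responses differed by -1.72 (SE 0.14, adjusted p = 4.47e-05). The low values rested on 262 and 459 reads. A second E2F2 entry (ENSG00000282899) was not analysed here, because its label lies beyond the rows that could be matched.

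E2F3 (ENSG00000112242, chr6:20401906-20493715), the third activator, moved less. Raji DMSO held 13.3 and 14.5 FPKM and Raji chidamide 11.6 and 11.5, and Raji-4RH went from 8.71 and 7.60 under DMSO to 3.94 and 4.16 under chidamide. Every Raji library thus had more E2F3 than any Raji-4RH library. The fall was 2.01-fold in Raji-4RH (difference -0.86, SE 0.073, adjusted p = 1.03e-05) and 1.20-fold in Raji (difference -0.24, SE 0.073, adjusted p = 0.0188), and the responses differed by -0.61 (adjusted p = 0.00173). The call in Raji was lost without Raji DMSO replicate 2 (difference -0.19, adjusted p = 0.119), without Raji chidamide replicate 1 (-0.25, 0.0719) and without Raji chidamide replicate 2 (-0.24, 0.0884).

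Of the members with a mainly repressive role, E2F5 fell slightly and E2F6 passed the test in neither line. E2F5 (ENSG00000133740), which works with p130 and p107, was at 13.9 and 14.8 FPKM in Raji DMSO, 11.9 and 12.02 in Raji chidamide, 6.66 and 6.69 in Raji-4RH DMSO and 4.74 and 5.03 in Raji-4RH chidamide. Its levels separated the lines more widely than the treatments. The difference was -0.38 in Raji-4RH (SE 0.056, adjusted p = 0.000288) and -0.24 in Raji (SE 0.056, adjusted p = 0.00556), and the difference between these, -0.14 (SE 0.08), did not pass (adjusted p = 0.179), although it did under quantile normalization (-0.37, adjusted p = 0.00539). C8orf59 lies on the opposite strand and shares 969 exon bases, 16.3% of the E2F5 exons. The library kit is not stated to keep strand, so reads of the 2 genes cannot be told apart there. E2F6 (ENSG00000169016, chr2:11444375-11466177) lacks the region that binds pocket proteins and represses genes through a Polycomb complex. It had the flattest profile, with 5.39 and 5.49 FPKM in Raji DMSO, 5.60 and 5.63 in Raji chidamide, 5.93 and 5.67 in Raji-4RH DMSO and 6.63 and 6.27 in Raji-4RH chidamide. Under chidamide it was 0.13 higher in Raji-4RH (SE 0.055, adjusted p = 0.0575) and 0.04 higher in Raji (SE 0.055, adjusted p = 0.587). Without Raji-4RH chidamide replicate 2 the first of these values passed (0.17, adjusted p = 0.0444). In Raji the sign turned under quantile normalization (-0.03) and median centring (-0.0035).

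The atypical pair split in Raji. E2F8 (ENSG00000129173, chr11:19224063-19241620), a repressor that rises in S phase, was at 10.3 and 10.9 FPKM in Raji DMSO, 4.41 and 4.77 in Raji chidamide, 9.26 and 9.25 in Raji-4RH DMSO and 1.21 and 1.48 in Raji-4RH chidamide. Both chidamide pairs lay below every DMSO library. E2F8 was 6.88-fold lower in Raji-4RH (difference -2.13, SE 0.072, adjusted p = 9.35e-08), where 70 and 113 reads remained, and 2.30-fold lower in Raji (difference -1.05, SE 0.072, adjusted p = 8.07e-06). The responses differed by -1.08 (adjusted p = 9.25e-05), or by -1.66 after quantile normalization. E2F7 (ENSG00000165891, chr12:77021247-77065580), its closest relative, was the lowest of the members with values. E2F7 was at 1.90 and 1.78 FPKM in Raji DMSO, 2.07 and 2.43 in Raji chidamide, 2.80 and 2.44 in Raji-4RH DMSO and 0.930 and 1.23 in Raji-4RH chidamide. Its Raji-4RH chidamide libraries were below all others, whereas its Raji chidamide libraries were above those of Raji DMSO. E2F7 was 2.42-fold lower in Raji-4RH (difference -0.80, SE 0.092, adjusted p = 6.73e-05, from 82 and 143 reads under chidamide). The Raji difference of 0.19 did not pass (SE 0.092, adjusted p = 0.104) and was -0.05 after quantile normalization. The responses differed by -0.99 (SE 0.13, adjusted p = 0.000485). At this low level the size of the Raji-4RH difference depended on the scale, and it was -1.21 with 0.1 in place of 1 added to FPKM, -1.25 in a voom fit of the recovered reads and -1.47 after quantile normalization.

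The DP partners, which E2F1 to E2F6 need for tight DNA binding, also parted. TFDP1 (ENSG00000198176, chr13:113584721-113641470) had the highest FPKM of the members with values. It was at 116 and 121 FPKM in Raji DMSO, 65.5 and 65.4 in Raji chidamide, 147 and 148 in Raji-4RH DMSO and 71.3 and 72.5 in Raji-4RH chidamide. All 4 chidamide libraries were below all 4 DMSO libraries. TFDP1 was 2.05-fold lower in Raji-4RH (difference -1.02, SE 0.049, adjusted p = 4.26e-07) and 1.81-fold lower in Raji (difference -0.84, SE 0.049, adjusted p = 3.34e-06). The responses differed by -0.18 (SE 0.069), which did not pass (adjusted p = 0.0602), but passed without Raji-4RH chidamide replicate 1 (-0.17, adjusted p = 0.0365), without Raji-4RH chidamide replicate 2 (-0.19, 0.0205) with no filter on low genes (0.0405) and after median centring (-0.22, 0.0361), and turned to 0.04 after quantile normalization.

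TFDP2 (ENSG00000114126, chr3:141944428-142149544) was the member whose response was more positive in Raji-4RH. It was at 12.4 and 13.3 FPKM in Raji DMSO, 8.53 and 8.74 in Raji chidamide, 7.89 and 8.07 in Raji-4RH DMSO and 8.999 and 8.58 in Raji-4RH chidamide. Raji DMSO stood apart above the other 3 groups. TFDP2 fell in Raji (1.49-fold, difference -0.52, SE 0.057, adjusted p = 9.69e-05), while the difference of 0.12 in Raji-4RH did not pass (SE 0.057, adjusted p = 0.0786). The responses differed by 0.65 (SE 0.081, adjusted p = 0.000368).

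For E2F5, E2F6, E2F7 and TFDP1 the values stand 1, 4, 3 and 14 rows below the label in the table. Read on the label's own row instead, the Raji-4RH difference turned to 0.36 for E2F5 (adjusted p = 0.000629), 0.74 for E2F7 (2.54e-05) and 0.65 for TFDP1 (0.00152), and E2F6 passed with 0.93 (0.00143). On that reading the Raji difference turned to 0.26 for E2F5 (0.00597) and that of TFDP1 lost its call (-0.15, 0.33), while E2F7 gained one in Raji (0.28, 0.00943). The E2F6 difference in response (0.84, 0.0232) and its difference between the lines under DMSO (1.23, 0.000288) passed as well. Between the lines the TFDP1 difference under DMSO turned to -0.30 (0.0617), and that of E2F7 turned to -0.50 under DMSO and lost its call under chidamide (-0.04, 0.59). A check over 301 rows around each of these labels compared the level with the type and transcript number of each gene at 31 distances. The distance used had the highest Spearman correlation for all 4, for example 0.598 against at most 0.137 at any other distance for TFDP1 and 0.230 against 0.115 for E2F7.

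**Figure D2:**
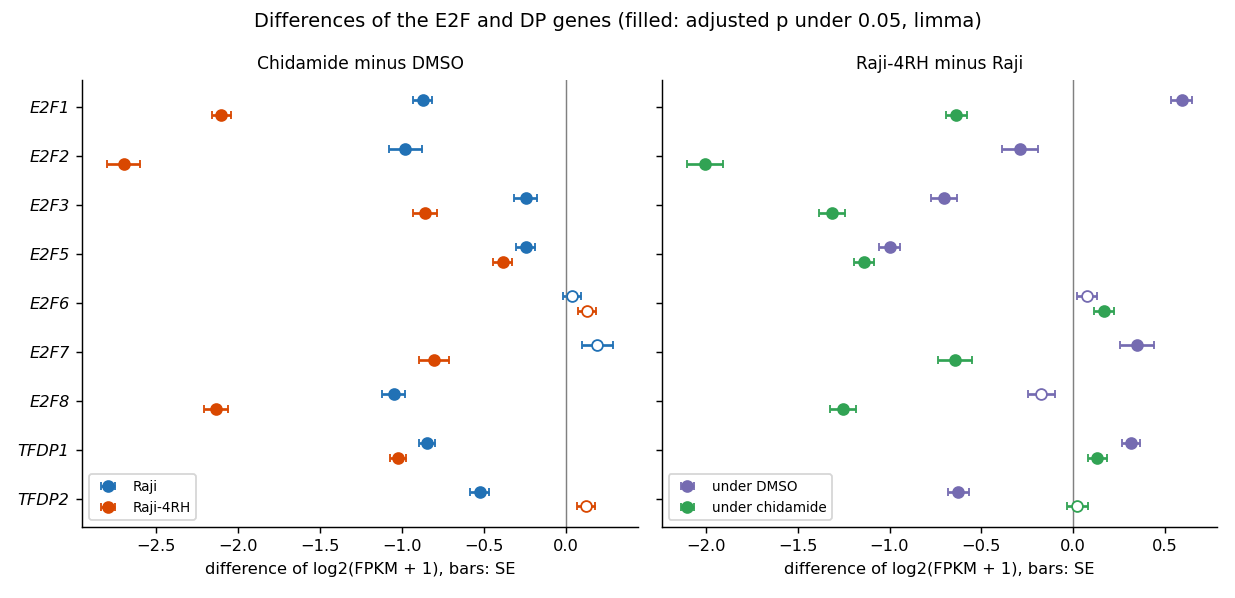
Differences of log2(FPKM + 1) with their SE (horizontal axis) for the 9 members, chidamide minus DMSO within each line on the left and Raji-4RH minus Raji under each treatment on the right; filled points passed limma's adjusted p of 0.05. On the left the Raji-4RH points of E2F1, E2F2 and E2F8 lie beyond -2 and those of Raji between -0.87 and -1.05, and on the right E2F1 lies on opposite sides of 0 under DMSO (0.59) and chidamide (-0.64).

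Under DMSO the resistant line had more E2F1, E2F7 and TFDP1 and less E2F2, E2F3, E2F5 and TFDP2 than Raji. These 7 of 9 members compare with 73.6% of all genes (41.2% higher and 32.4% lower in Raji-4RH). E2F1 was 1.52-fold higher (difference 0.59, adjusted p = 2.29e-05), TFDP1 1.25-fold higher (0.31, 0.000448) and E2F7 1.43-fold higher (0.35, 0.00839). E2F5 was 2.15-fold lower (-0.999, 8.28e-07), E2F3 1.703-fold lower (-0.70, 3.59e-05) and TFDP2 1.61-fold lower (-0.63, 1.65e-05). The smaller E2F2 difference of -0.29 (adjusted p = 0.0280) did not pass without Raji DMSO replicate 1 (-0.25, 0.13), without Raji DMSO replicate 2 (-0.32, 0.0661) or without Raji-4RH DMSO replicate 1 (-0.23, 0.154). The same call was lost with no filter on low genes (0.0637) and under quantile normalization (-0.25, 0.0713). That of E2F7 did not pass without Raji DMSO replicate 2 (0.32, 0.0529), without Raji-4RH DMSO replicate 1 (0.28, 0.0648) or after quantile normalization (0.16, 0.124). E2F8 differed by -0.17 (adjusted p = 0.0579), passing without Raji-4RH chidamide replicate 1 (0.0244) or replicate 2 (0.0246), with only the DMSO libraries fitted (0.0266), in a voom fit of recovered reads (-0.19, 0.027) and after median centring (-0.22, 0.0166). E2F6 differed by 0.08 (adjusted p = 0.231).

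Under chidamide 8 of the 9 members differed between the lines, where 79.3% of all genes did (44.3% higher and 35.0% lower in Raji-4RH). E2F2 was 4.73-fold lower in Raji-4RH (difference -2.005, adjusted p = 3.04e-07), E2F8 3.41-fold (-1.25, 7.30e-07), E2F3 2.85-fold (-1.31, 5.96e-07), E2F5 2.45-fold (-1.14, 3.00e-07), E2F7 2.08-fold (-0.65, 0.000219) and E2F1 1.58-fold (-0.64, 1.16e-05). E2F6 (0.17, adjusted p = 0.0191) and TFDP1 (0.13, 0.0330) were slightly higher. The E2F6 call was lost without Raji chidamide replicate 1 (0.17, 0.0844), Raji chidamide replicate 2 (0.18, 0.0739) or Raji-4RH chidamide replicate 1 (0.14, 0.0799), and under both other scalings. The TFDP1 call was lost without Raji chidamide replicate 1 (0.14, 0.129) or replicate 2 (0.13, 0.137), without Raji-4RH DMSO replicate 1 (0.0674) or replicate 2 (0.0671) at the same difference, with only the chidamide libraries fitted (0.0876), and after median centring (0.054, 0.349), whereas it was 0.35 after quantile normalization. The E2F7 difference was -1.27 after quantile normalization, -1.03 in the voom fit of recovered reads and -1.0008 with 0.1 added to FPKM. TFDP2 differed by 0.02 (SE 0.057, adjusted p = 0.727). The comparisons share libraries with those of chidamide against DMSO.

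The summed level and the makeup of the E2F genes moved together. The FPKM of the 7 E2F genes with values summed to 145 and 142 in Raji DMSO, 87.0 and 86.4 in Raji chidamide, 150 and 156 in Raji-4RH DMSO and 41.3 and 42.6 in Raji-4RH chidamide. The sum was thus 1.65-fold lower in Raji and 3.66-fold lower in Raji-4RH under chidamide. Activators made up 77.5% ± 1.10 (SD, n = 2) of the sum in Raji DMSO and 71.9% ± 0.85 in Raji chidamide, 84.1% ± 0.72 in DMSO-treated Raji-4RH and 67.2% ± 0.15 in chidamide-treated Raji-4RH. E2F5 and E2F6 together made up 13.8% ± 0.73, 20.3% ± 0.23, 8.14% ± 0.33 and 27.0% ± 0.69 in the same order. The atypical members made up 8.65% ± 0.37, 7.88% ± 0.62, 7.75% ± 0.39 and 5.77% ± 0.84. The share of E2F5 and E2F6 was larger under chidamide, but of a smaller sum. E2F5 itself fell in both lines, and E2F6 passed the test in neither. E2F4 is not in these sums, and the shares rest on the joined exon lengths behind FPKM. TFDP1 made up 90.2% of TFDP1 and TFDP2 together in Raji DMSO, 88.3% in Raji chidamide, 94.9% in DMSO-treated Raji-4RH and 89.1% in chidamide-treated Raji-4RH. The activator share was lower under chidamide in both lines without overlap of the libraries, and the exact two-sided permutation test gave p = 0.3333 for each share in each line, the smallest p that 2 libraries against 2 allow.

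**Figure D3:**
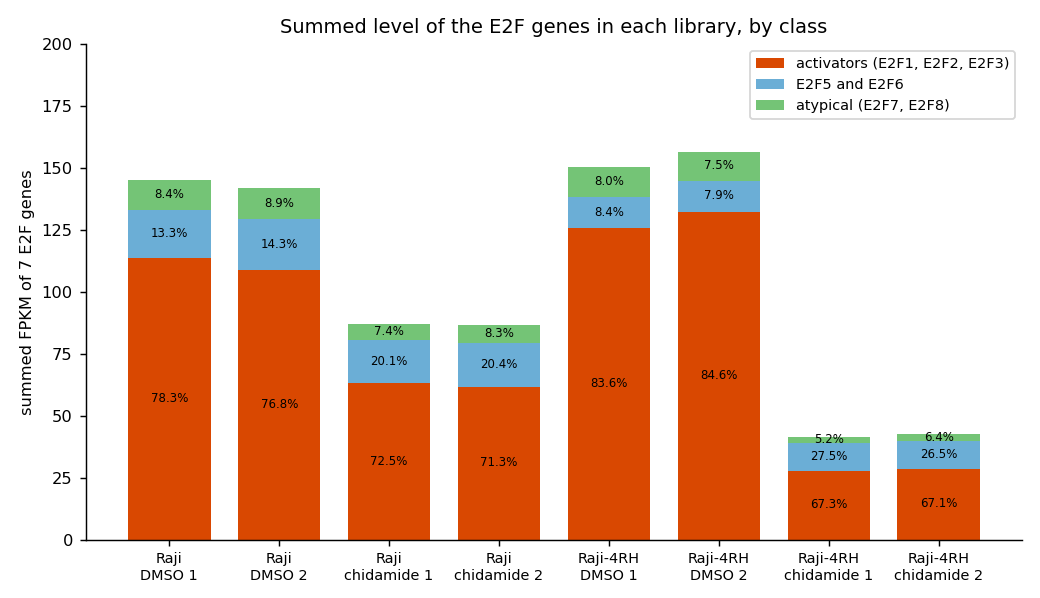
Summed FPKM of the 7 E2F genes with values (vertical axis, from 0) in each of the 8 libraries, split into activators, E2F5 with E2F6, and atypical members; the percentages are shares of that library's sum. The sums fall from 150 and 156 to 41.3 and 42.6 in Raji-4RH and from 145 and 142 to 87.0 and 86.4 in Raji, and the activator share is lowest in the Raji-4RH chidamide libraries.

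Among 105 other genes of the RB-E2F pathway in 9 lists, 89 were tested. In Raji-4RH 63 fell and 19 rose under chidamide, where 31.6% of all genes fell and 43.3% rose, and in Raji 55 fell and 18 rose, where 28.5% and 31.5% did. The response differed between lines for 68, being more negative in Raji-4RH for 57 and more positive for 11, against 21.7% and 27.2% of all genes. The label rows of several of these genes also stand above their values. Read on the label's own row, the Raji-4RH direction turned for RBBP4 (1.48), RYBP (-0.11) and SKP2 (0.50), and the calls of RB1 (0.19, adjusted p = 0.0714), CDC25A (-0.15, 0.0664) and PCGF6 (-0.15, 0.13) were lost.

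Targets of S phase entry, which encode replication factors and nucleotide enzymes, fell nearly throughout. Of 33 tested, 32 fell in Raji-4RH (median -1.99, all genes 0.09) and 30 in Raji (median -0.82, all genes 0.02), with none higher, and 32 had a more negative response in Raji-4RH. CDC45, a subunit of the replicative helicase, was 13.1-fold lower in Raji-4RH (38.5 to 2.93 FPKM, difference -3.33, adjusted p = 1.91e-08) and 2.65-fold lower in Raji (-1.29, 6.37e-07). The helicase subunits MCM4 (8.44-fold in Raji-4RH, 2.58-fold in Raji) and MCM5 (7.70-fold and 2.07-fold) and the uracil glycosylase UNG (7.34-fold and 3.56-fold) fell likewise (adjusted p at most 2.14e-08 in Raji-4RH). EZH2, named because it was the exception, did not pass in Raji-4RH (-0.07, adjusted p = 0.330) or Raji (0.16, 0.0525), nor did TK1 (-0.07, 0.472) and GMNN (-0.17, 0.101) in Raji. UHRF1 was not analysed here.

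The pocket proteins that restrain E2F moved apart. RB1, the retinoblastoma protein gene, rose 2.31-fold in Raji-4RH (5.65 to 13.03 FPKM, difference 1.07, adjusted p = 1.61e-06) and 1.66-fold in Raji (0.67, 5.98e-05). RBL1, which encodes p107 and is itself an E2F target, fell by 0.90 and 0.45 on the log2 scale (adjusted p = 3.10e-06 and 0.000349). RBL2, the p130 gene, rose in Raji-4RH (0.47, adjusted p = 0.000814) and in Raji was 0.16 higher without passing (0.117), which it did with only the Raji libraries fitted (0.0425). A further list held genes of the MuvB core (LIN9, LIN54 and RBBP4), MYBL1, MYBL2 and FOXM1. Of these 6 tested genes, 6 fell in Raji-4RH (median -1.14) and 5 in Raji (median -0.71). The MuvB genes LIN37 and LIN52 were not analysed here. Of all genes, 31.6% fell in Raji-4RH and 28.5% in Raji. MYBL2 went from 190 to 38.6 FPKM in Raji-4RH (difference -2.28, adjusted p = 6.65e-08) and from 192 to 90.2 in Raji (-1.08, 6.56e-06). FOXM1 was 4.33-fold lower in Raji-4RH and 1.77-fold in Raji, LIN9 3.00-fold and 1.33-fold, and RBBP4 2.04-fold and 1.62-fold, each past the test. LIN54 fell in Raji-4RH (-0.63) and was 0.09 in Raji (adjusted p = 0.286).

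G1 cyclins and their kinases, which inactivate pocket proteins, fell for 6 of 8 tested genes in Raji-4RH (2 rose) and 5 of 8 in Raji (none rose). The shares of all genes that fell were 31.6% and 28.5%. CDC25A, the phosphatase that activates CDK2, was 10.6-fold lower in Raji-4RH (13.2 to 1.24 FPKM, difference -2.66, adjusted p = 2.18e-08) and 2.37-fold lower in Raji (-1.18, 1.27e-06). CCNE1, the cyclin E1 gene, fell 3.57-fold in Raji-4RH (-1.45, adjusted p = 5.79e-07) but stood at 3.98 against 4.03 FPKM in Raji (-0.01, 0.898), with overlapping libraries. CDK2 was 2.66-fold and 1.61-fold lower and CCND3 2.21-fold and 1.41-fold lower. The genes that rose in Raji-4RH were CCND1 (0.34, adjusted p = 0.0121) and CDK6 (0.19, 0.0121), and after quantile normalization neither was called higher. The CDK inhibitors rose for 4 of 6 tested genes in each line, with 2 lower in Raji-4RH and 1 in Raji, a small list beside the 43.3% and 31.5% of all genes that rose. CDKN1A, the p21 gene, rose 5.37-fold in Raji-4RH (30.7 to 165 FPKM, difference 2.39, adjusted p = 4.33e-08) and 4.94-fold in Raji (2.20, 2.08e-07), and CDKN1B, the p27 gene, 3.54-fold and 2.65-fold. CDKN2D rose 1.63-fold in both lines. CDKN2A fell by 0.57 in Raji-4RH (adjusted p = 0.000126) and was 0.16 higher in Raji (0.0832), a value that passed without Raji DMSO replicate 1 (0.27, 0.0138) and after quantile normalization (0.24, 0.0254).

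Genes listed as proapoptotic E2F1 targets mostly rose while E2F1 fell. In Raji-4RH 6 of 8 tested rose and 1 fell (median 0.71), and in Raji all 8 rose (median 0.57), against 43.3% and 31.5% of all genes higher and medians of 0.09 and 0.02. BBC3, which encodes PUMA, rose 2.76-fold in Raji-4RH (difference 1.29, adjusted p = 1.26e-05) and 3.00-fold in Raji (1.38, 2.16e-05). APAF1, the apoptosome scaffold, rose 2.39-fold and 1.99-fold, PMAIP1, the NOXA gene, 1.85-fold and 2.19-fold, and BCL2L11, the BIM gene, 1.49-fold and 1.58-fold. CASP8AP2 fell in Raji-4RH (-0.48, adjusted p = 0.000251).

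Genes of the Polycomb partners of E2F6 were called in both directions. Of 9 tested, 3 rose and 4 fell in each line, which is near the shares of all genes (43.3% higher and 31.6% lower in Raji-4RH, 31.5% and 28.5% in Raji). PCGF6, the ring finger subunit that gives this complex its identity, fell 3.00-fold in Raji-4RH (difference -1.40, adjusted p = 1.61e-07) and 1.56-fold in Raji (-0.57, 5.15e-05). L3MBTL2 fell 2.65-fold and 1.87-fold and WDR5 2.53-fold and 1.58-fold, while RYBP rose 2.34-fold and 1.87-fold. The list median in Raji-4RH was 0.08 and turned to -0.22 after quantile normalization. Of 11 germline genes repressed by E2F6, 3 passed the filter: STAG3 rose in Raji-4RH (0.68, adjusted p = 5.25e-05) and Raji (0.64, 0.000147), TUBA3D fell (-0.29 in each, 0.00309 and 0.00438) and SYCE2 did not pass (0.23, 0.223 and 0.19, 0.350). SYCE2 passed without Raji-4RH chidamide replicate 1 in Raji-4RH (0.45, 0.0235), and, on the label's own row, in the other direction in Raji-4RH (-1.33, 5.26e-05) and Raji (-0.73, 0.00273). The TUBA3D calls were lost in the voom fit of the recovered reads (-0.43, 0.0922 and -0.47, 0.0902), and its reads are uncertain because near-identical tubulin copies exist. Of 13 cofactors and modifying enzymes of E2F, 10 fell and 1 rose in Raji-4RH, and 8 fell and 1 rose in Raji. Of all genes, 31.6% fell and 43.3% rose in Raji-4RH, and 28.5% and 31.5% did in Raji. After quantile normalization 9 of the list fell and 0 rose in Raji-4RH. There 2 called genes had the other sign, and the median was -0.34 against -0.61. SKP2, a ubiquitin ligase subunit that binds E2F1, was 3.33-fold lower in Raji-4RH (difference -1.59, adjusted p = 1.89e-07) and 2.01-fold lower in Raji (-0.93, 8.20e-06). HCFC1, a chromatin cofactor, was 2.91-fold and 1.66-fold lower and PRMT1, an arginine methyltransferase, 1.96-fold and 1.62-fold lower. CCNF, whose cyclin F directs activator E2Fs to degradation, was 2.42-fold lower in Raji-4RH (-1.19, 2.87e-06) and -0.18 in Raji (0.0844), which passed without Raji-4RH chidamide replicate 1 (0.0102) or replicate 2 (0.0103), with only the Raji libraries fitted (0.0154), in the voom fit (-0.19, 0.0416) and after median centring (-0.22, 0.0294).

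**Figure D4:**
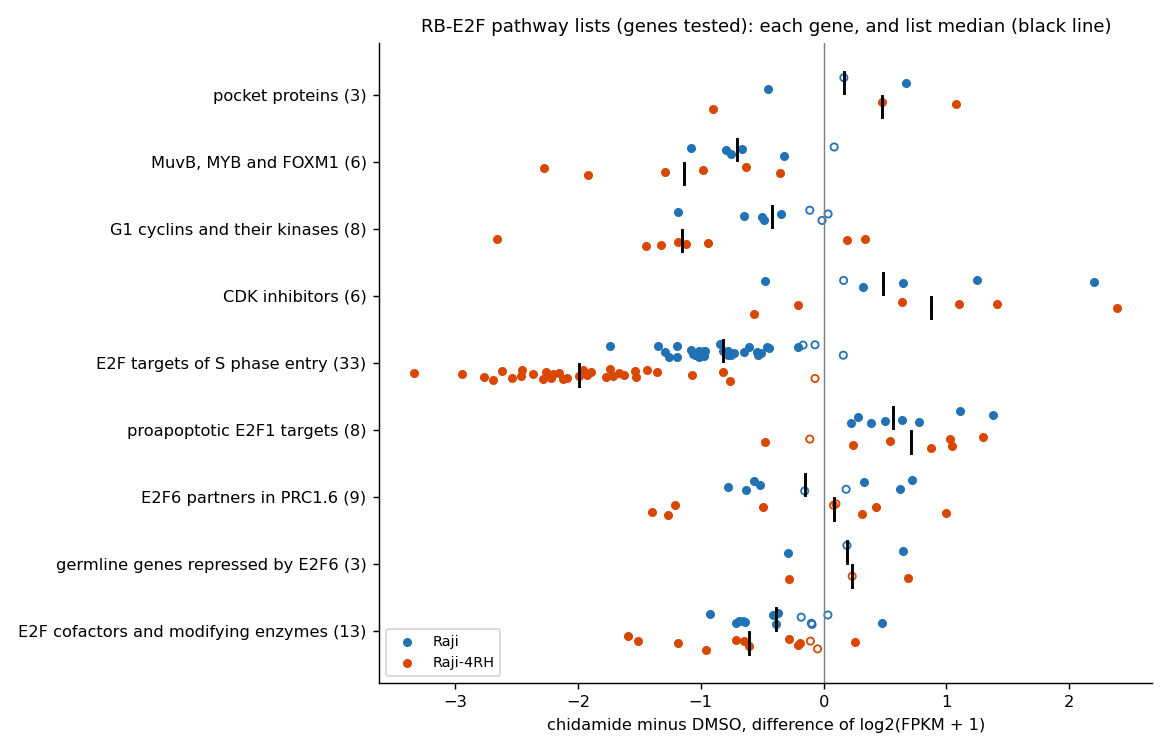
Chidamide minus DMSO difference of log2(FPKM + 1) (horizontal axis) of each tested gene in 9 RB-E2F pathway lists, Raji above Raji-4RH within each list; filled points passed limma's adjusted p of 0.05, the number of genes is in brackets and black lines are list medians. In the S phase list the Raji-4RH median is -1.99 and the Raji median -0.82, whereas CDK inhibitors and proapoptotic targets have medians above 0 in both lines.

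The profiles most like 3 members were looked up by Pearson correlation of log2(FPKM + 1) over the 8 libraries among the 6606 genes whose mean reached 5 FPKM. They are descriptions, since the libraries share 4 groups. E2F1 was followed most closely by CDC45 (0.999), H2AFY (0.999), which encodes a macroH2A histone, and PCNA (0.998), the replication clamp gene. E2F7 was followed by IKZF1 (0.972), EMC8 (0.966) and EGR1 (0.959). TFDP1 was followed by XPOT (0.999), FAM57A (0.998) and SNRNP25 (0.998).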

How the data were processed

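RNA was sequenced from 8 libraries (2 per group) made with a NEBNext Ultra kit and read on an Illumina instrument. The submitters' processing notes name HISAT2 2.0.5, SAMtools 1.7, HTSeq 0.9.1 and DESeq2 1.22.2 with build GRCh38 (hg38), without giving their roles. The authors deposited FPKM values per gene, with gene lengths. Of 63967 rows, the last 662 repeat the reads of the first 662, and further down values stand 1 to 14 rows below their labels, so labels up to row 18171 were joined to the value row given by a list of row ranges, leaving out those between ranges, and FPKM was rescaled to the label's gene length. This placed 18143 labels and 90.7% to 93.2% of the reads, and other rows, E2F4 among them, were left out. Reads recovered from FPKM and length were whole for 100.0% of values above 0 (tolerance 0.02 reads). Depths are sums of these reads.

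The 10710 genes that reached 1 FPKM in 2 or more libraries entered 1 limma 3.58.1 fit (R 4.3.3, trend). It used log2(FPKM + 1) over all 8 libraries, with adjusted p under 0.05 by Benjamini-Hochberg. The procedure was also run on simulated data in which few genes changed, by 1 or more on the log2 scale, in 1 group. Many more genes were called in the real data, and that run does not bear on small differences. Promoter windows are RefSeq's (GRCh38.p14), and gene positions and overlaps are from GENCODE (GRCh38). The members and gene lists were chosen with earlier results of these data known. Named pathway genes were, per list, up to 4 called in Raji-4RH with the largest change, a mean reaching 5 FPKM in 1 group and no overlap of libraries, or all genes of lists with 3 or fewer tested. Others named are exceptions chosen after their values were seen. There were 19 alternatives (scaling, pseudocount 0.1, filter, trend, samples fitted, block, recovered reads, placing and leaving out each library).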

Additional observations from a re-analysis of the deposited data

Results flagged for a closer look

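The response to chidamide differed between Raji-4RH and Raji by the interaction term of the limma fit for the following genes. They are members and pathway genes, the latter named mostly by size of change in Raji-4RH, which is part of this difference. That choice favours genes with a larger response in Raji-4RH. Of all genes tested, 48.8% differed in response. Values are the Raji-4RH difference minus the Raji difference of log2(FPKM + 1). Among the members the value was -1.23 for E2F1, -1.72 for E2F2, -0.61 for E2F3, -0.99 for E2F7, -1.08 for E2F8 and 0.65 for TFDP2, and TFDP2 fell in Raji while its Raji-4RH difference of 0.12 did not pass. Among the pocket protein genes RB1 rose more in Raji-4RH (0.41) and RBL1 fell more (-0.45). Of the MuvB, MYB and FOXM1 genes the value was -1.19 for MYBL2, -1.12 for FOXM1, -0.97 for LIN9 and -0.32 for RBBP4. MYBL1 went the other way (0.40).

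In the G1 list the value was -1.48 for CDC25A, -1.43 for CCNE1, -0.67 for CDK2 and -0.63 for CCND3, while CDK6 (0.53) and CCND1 (0.45) were more positive. Of the CDK inhibitors CDKN2A stood at -0.73, CDKN2B at 0.79 and CDKN2C at 0.27. Of the replication genes the value was -2.04 for CDC45, -1.60 for MCM4, -1.75 for MCM5 and -0.95 for UNG. Of the proapoptotic genes, APAF1 rose more in Raji-4RH (0.27) as did HRK (0.53), PMAIP1 rose less (-0.23) and CASP8AP2 stood at -0.76. The Polycomb genes stood at -0.83 for PCGF6, -0.63 for WDR5, -0.43 for L3MBTL2 and 0.28 for RYBP. The cofactors stood at -0.66 for SKP2, -0.80 for HCFC1, -1.01 for CCNF and -0.27 for PRMT1, with SETD7 (0.54) and KAT2B (0.35) more positive. MYBL1, CDK6, CCND1, CDKN2B, CDKN2C, HRK, CASP8AP2, SETD7 and KAT2B were added after their values were seen and were not followed through the alternatives. Of the others, the calls of APAF1, PMAIP1, RYBP and PRMT1 were lost on leaving out single libraries, with values from 0.21 to 0.28, from -0.27 to -0.19, from 0.23 to 0.30 and from -0.31 to -0.24 in those fits. After quantile normalization PMAIP1 (-0.11, adjusted p = 0.262) and PRMT1 (-0.049, 0.651) were lost too, as were APAF1 with 0.1 added to FPKM (0.0732) or in the voom fit (0.0586) and RYBP after median centring (0.24, 0.0514) or on the label's own row (0.066, 0.588).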

How the results depend on the processing

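Of 801 member values over the alternatives, 744 kept their direction and their side of the threshold, and of 1629 values of the named pathway genes 1571 did. Counts of genes called in either direction stayed within 1.5 times the reported ones. With no filter on low genes, those called higher rose to 7077 from 4642 in Raji-4RH and to 7120 from 4746 between lines under chidamide, since 16843 genes were then tested. Leaving out 1 library gave 7 to 8 members called in Raji-4RH, 6 to 7 in Raji, 6 to 7 for the difference in response, 5 to 8 between lines under DMSO and 6 to 8 under chidamide. Reading values on the label's own row turned the Raji-4RH difference of E2F5 (0.36), E2F7 (0.74), TFDP1 (0.65), RBBP4 (1.48), RYBP (-0.11), SKP2 (0.50) and SYCE2 (-1.33), the Raji difference of E2F5 (0.26), PCGF6 (0.18), RBBP4 (0.025), RYBP (-0.18), SKP2 (0.33) and SYCE2 (-0.73), and the difference in response of E2F5 (0.10), E2F7 (0.46), TFDP1 (0.81), RB1 (-0.083), RBBP4 (1.46), SKP2 (0.18) and CDC25A (0.29). It also turned the difference between lines under DMSO of E2F7 (-0.50) and TFDP1 (-0.30), since another gene's values are then read. In that reading the activator share was 87.3%, 84.0%, 90.6% and 74.3% in Raji DMSO, Raji chidamide, Raji-4RH DMSO and Raji-4RH chidamide, the share of E2F5 and E2F6 3.39%, 7.29%, 2.41% and 17.5%, and the atypical share 9.35%, 8.69%, 6.97% and 8.196%. Quantile normalization turned E2F6 (-0.032), E2F7 (-0.046) and SYCE2 (-0.074) in Raji, SYCE2 in Raji-4RH (-0.37), the TFDP1 difference in response (0.041) and TFDP2 between lines under chidamide (-0.011). Median centring turned E2F6 in Raji (-0.0035) and TFDP2 between lines under chidamide (-0.057). The cause was not tested. Without 1 library the TFDP2 difference between lines under chidamide ran from -0.0082 to 0.054 and the CCNE1 difference in Raji from -0.041 to 0.015.

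Deviations of same-numbered libraries from their group means had correlations from -0.28 to 0.17 over 10710 genes. With 2 libraries per group these values cannot settle whether the numbers pair libraries. With the replicate number as a block, 7886 genes were called in Raji-4RH, 6183 in Raji, 4915 for the difference in response, 7748 between lines under DMSO and 8397 under chidamide, against 8022, 6421, 5231, 7882 and 8495 without it. Under the block E2F8 passed between lines under DMSO (adjusted p = 0.0453) and TFDP1 did not under chidamide (0.0568), and no other member's call changed. Pairing crossed in Raji, added after seeing the data, gave 8115, 6499, 5365, 7969 and 8582. Among the members depth limits E2F7 and E2F8 most, with 70 to 143 reads per library in Raji-4RH chidamide. Some named pathway genes also had few reads in these libraries: CDC25A 68 and 99, CCNE1 67 and 103, TUBA3D 35 and 48 and SYCE2 27 and 58.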
